A study of Homo sapiens with 8 samples.

Results

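Cadherins are calcium-dependent cell-surface proteins, and the 84 genes described here are the rows of an expression table of 18406 genes whose symbol is CDH with a number or begins with PCDH. PCDH11X and PCDH11Y were left out by the same rule. The 84 genes divide into 16 classical cadherins (5 of type I and 11 of type II), 4 atypical cadherins, 10 non-clustered protocadherins and 54 clustered protocadherins, which are 15 PCDHA, 16 PCDHB and 23 PCDHG genes. The rule goes by symbol and uses no measured value, though it was set with earlier results of these data known.

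Classical cadherins bind their like on a neighbouring cell and hold the catenins on their cytoplasmic tail, which tie the junction to actin. Type I members include E-cadherin (CDH1), N-cadherin (CDH2) and P-cadherin (CDH3). Melanocytes attach to keratinocytes through E- and P-cadherin, and many melanomas carry N-cadherin. Clustered protocadherins are best known from neurons, where each cell uses a few variable exons of the alpha, beta and gamma clusters as a surface identity. Each alpha or gamma transcript joins 1 variable exon to constant exons that the whole cluster shares, whereas each beta gene is a single exon of its own. CTCF and cohesin bind promoters of the clusters and loop them to distant enhancers.

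The cell line 92.1, established from a human uveal melanoma, was treated for 24 h before total RNA was sequenced. The cells received 10 nM trametinib, an inhibitor of the kinases MEK1 and MEK2, or 10 nM panobinostat, an inhibitor of histone deacetylases, or the combination of both drugs, or vehicle (DMSO), with 2 libraries in each of the 4 groups. Panobinostat is named in its libraries' label but is there also called a MEK inhibitor, and the drug name was followed. One concentration, 10 nM, is labelled for the combination, so that each drug was used at 10 nM there is an assumption. All results come from this 1 cell line. The panobinostat and combination libraries have sample numbers apart from those of the vehicle and trametinib libraries, and no label names a batch. A difference between these sets of libraries cannot be told apart from panobinostat when panobinostat or the combination is compared with vehicle. The same holds for the combination against trametinib.

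The deposited values are a normalised signal, counts divided by a library's size factor, and 1 read was worth 0.602 to 1.52 of it. The 8 libraries held 6897784 to 16861001 recovered reads. Genes were tested where their mean signal was at least 10, and log2 changes are of the signal plus 1, with the standard error (SE) of a limma fit over all 8 libraries. A change passed at an adjusted p under 0.05 over all 13320 tested genes. No source says that replicates were separate cultures, so p-values speak of the spread among libraries, possibly technical. The trametinib libraries stood apart, with 3743 and 5362 of all genes at 0 (replicates 1 and 2), against 2222 to 2890 at 0 elsewhere. Genes with 1 to 5 reads made up 6.74% and 2.10% of the detected genes in them, against 9.93% to 13.3% in the rest, and replicates correlated at 0.897 with trametinib against 0.974 to 0.991 elsewhere. Of the 84 members, 32 were at 0 in trametinib replicate 2 and 12 in trametinib replicate 1. The part of this difference in the results below was not tested, beyond the fits without each library. Melanocyte markers identified the cells, with 10 listed genes summing to a signal of 103063 to 183799 per library, while the endothelial cadherin CDH5 was at 0 in all 8.

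Many promoters of the clustered genes carry a short shared element, shown here because the 3 clusters are compared below. In RefSeq windows of GRCh38.p14 that run from 250 bases before to 50 bases after each annotated start, the 9 bases held by the largest number of a cluster's windows, on either strand, were sought by script. They were GATGTCGCT in PCDHA (9 of 13 windows), GGTGGCGCT in PCDHB (13 of 14, PCDHB1 being the exception) and GCGCCGCTG in PCDHG (11 of 25). Some PCDHG genes have more than 1 window, and 10 of 20 PCDHG genes with a window hold the 9 bases. Over all 35116 promoter windows, GATGTCGCT occurred in 0.105%, GGTGGCGCT in 0.501% and GCGCCGCTG in 1.28%. All 3 contain the letters CGCT, and an element of that core, bound by CTCF, is known in most promoters of the clusters. The 9 bases began at positions -84 to -2 relative to the start in PCDHB, -86 to -43 in PCDHA and -99 to -44 in PCDHG. For the 8 PCDHB genes that were tested and had a window, in chromosomal order and with the shared 9 bases in capitals, the 60 bases around the element read as follows.
PCDHB7, chr5:141172551-141172610, plus strand: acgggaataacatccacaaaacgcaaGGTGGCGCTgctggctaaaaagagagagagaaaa
PCDHB8, chr5:141177762-141177821, plus strand: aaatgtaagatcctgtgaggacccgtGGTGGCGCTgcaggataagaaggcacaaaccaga
PCDHB16, chr5:141182295-141182354, plus strand: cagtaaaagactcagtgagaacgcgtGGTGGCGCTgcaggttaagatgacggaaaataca
PCDHB9, chr5:141187059-141187118, plus strand: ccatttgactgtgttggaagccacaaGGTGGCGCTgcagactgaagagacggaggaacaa
PCDHB10, chr5:141192284-141192343, plus strand: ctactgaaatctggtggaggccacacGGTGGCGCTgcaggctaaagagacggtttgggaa
PCDHB12, chr5:141208628-141208687, plus strand: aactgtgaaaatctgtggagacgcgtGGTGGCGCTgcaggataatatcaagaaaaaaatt
PCDHB13, chr5:141213850-141213909, plus strand: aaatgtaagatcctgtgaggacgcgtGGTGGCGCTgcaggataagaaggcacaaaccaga
PCDHB14, chr5:141223248-141223307, plus strand: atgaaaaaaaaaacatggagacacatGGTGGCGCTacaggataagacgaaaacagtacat

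In the alpha and gamma clusters, the genes printed are those that hold the 9 bases and rose with trametinib.
PCDHA2, chr5:140794766-140794825, plus strand: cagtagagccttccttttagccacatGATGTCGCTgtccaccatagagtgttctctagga
PCDHA10, chr5:140855826-140855885, plus strand: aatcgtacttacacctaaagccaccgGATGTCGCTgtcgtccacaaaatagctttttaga
PCDHA12, chr5:140875229-140875288, plus strand: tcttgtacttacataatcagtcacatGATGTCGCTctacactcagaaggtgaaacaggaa
PCDHGA7, chr5:141382635-141382694, plus strand: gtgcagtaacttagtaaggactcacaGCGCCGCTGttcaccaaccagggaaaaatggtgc
PCDHGB6, chr5:141407910-141407969, plus strand: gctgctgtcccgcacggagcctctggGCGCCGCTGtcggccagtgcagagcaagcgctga
PCDHGA11, chr5:141420958-141421017, plus strand: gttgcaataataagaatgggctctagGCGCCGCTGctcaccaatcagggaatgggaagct

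With trametinib, 21 of 40 tested clustered protocadherins rose, 9 of 10 PCDHB genes among them, while some classical cadherins and non-clustered protocadherins rose and others fell. The summed signal of the 54 clustered genes was 3410 and 3031 with trametinib, 2058 and 1809 with panobinostat, 2538 and 2541 in the combination and 1172 and 1187 in vehicle. Every treated library thus lay above both vehicle libraries, with no test of these sums. As a ratio to the vehicle mean, PCDHB sums were 4.12 with trametinib, 2.06 with panobinostat and 3.44 with both drugs, PCDHA sums 2.66, 1.56 and 2.26, and PCDHG sums 1.91, 1.42 and 1.32, in that order of treatments. The PCDHG sums include PCDHGC3, with means of 183 with panobinostat, 37.2 in the combination and 164 in vehicle. The median log2 change of tested PCDHG genes was 0.58 with panobinostat and 0.93 in the combination, so the sums and the medians order these 2 treatments differently. Classical cadherins gave ratios of 1.40 with trametinib, 1.39 with panobinostat and 1.71 with both drugs, and non-clustered protocadherins 0.318, 1.94 and 1.27. The non-clustered ratios largely reflect 1 gene, PCDH20. Its means were 574 with trametinib, 7711 with panobinostat, 3329 in the combination and 4185 in vehicle. The class sums had means of 1732, 10548, 6922 and 5437 in the same order. In bulk RNA, more expressing cells and more RNA per cell cannot be told apart. A median of 49.3% of the 50-base stretches of PCDHA genes, and 43.2% of those of PCDHG genes, occurs in another member. How such reads were counted is not known. PCDHA and PCDHG genes may thus rest partly on the same reads, and their counts and sums are not counts and sums of separate observations.

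**Figure D1:**
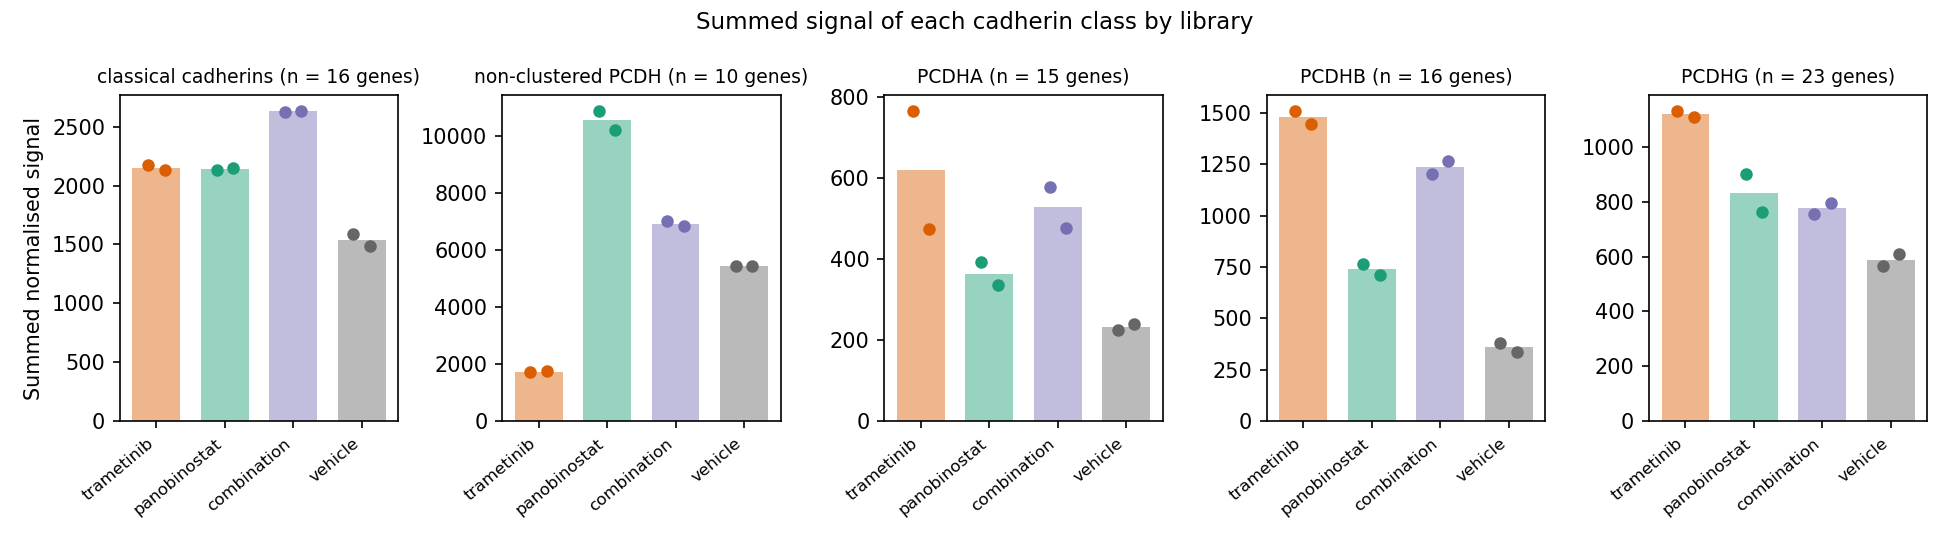
Summed normalised signal (vertical axis) of each class in every library, by treatment (horizontal axis), with bars at the mean of 2 libraries and points for the libraries. PCDHB sums lie at 1447 to 1510 with trametinib against 337 to 380.4 in vehicle, and non-clustered protocadherins at 1721 to 1742 with trametinib against 5422 to 5451 in vehicle. Of the non-clustered sums, PCDH20 alone had means of 574 with trametinib and 4185 in vehicle.

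Of the 84 members, 55 were tested: 6 classical cadherins, 9 non-clustered protocadherins and 40 clustered ones (14 PCDHA, 10 PCDHB and 16 PCDHG). With trametinib against vehicle, 25 of the 55 rose, where 23.7% of all tested genes rose, and 6 fell, where 27.4% of all tested genes fell. The members' median log2 change was 0.99, beside -0.073 over all tested genes. With panobinostat, 17 rose (15.0% of all tested genes rose) and 0 fell (15.6% of all tested genes fell), with a median of 0.77 beside 0.0021. At an unadjusted limma p under 0.05, 0 members fell with panobinostat, by edgeR 0 and by DESeq2 1, and 1 fell in the limma fit without either trametinib library. In the combination against vehicle, 23 rose (24.5% of all) and 2 fell (25.5% of all), with a median of 1.26 beside 0.031. Of the tested members, CDH3, CDH7, CDH19, CDH24, PCDH7, PCDH9, PCDH10, PCDH18, PCDH20 and PCDHB11 had means above 150. The other tested members had means of 10 to 150. All tested genes with a mean of 10 to 150 had medians of -0.11 with trametinib, 0.21 with panobinostat and 0.38 with both drugs. Of these genes, 14.6% rose and 16.4% fell with trametinib, and 8.39% rose and 3.32% fell with panobinostat. In the combination, 19.6% of them rose and 9.29% fell. Falls with panobinostat were thus few among all genes of that level. The 3 comparisons share the vehicle libraries.

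Leaving out 1 library moved these counts. A fit without 1 trametinib library takes no spread from that group, whose replicates correlated least, so calls can pass more easily in it. With trametinib, the number of members that rose was 12 without vehicle replicate 1 and 13 without vehicle replicate 2, and the number that fell was 3 without vehicle replicate 2 and 13 without trametinib replicate 1. With panobinostat, 11 rose without vehicle replicate 1, 9 without vehicle replicate 2, 7 without panobinostat replicate 1 and 10 without panobinostat replicate 2. In the combination, 35 rose without either trametinib library and 14 without combination replicate 1. Of 111 member and comparison pairs that passed, 55 passed also in each of the 8 fits without 1 library. With no filter on low values, 14 of the 111 did not pass. These were the trametinib calls of PCDH17, PCDHA9, PCDHA11, PCDHA12 and PCDHGB7, the panobinostat call of PCDHB13, the combination calls of PCDHAC1 against vehicle and PCDHB12 against panobinostat, and the interaction of CDH2, PCDH9, PCDH10, PCDHB12, PCDHB16 and PCDHGB6.

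Classes divided as follows with trametinib. Of 40 clustered genes, 21 rose and 0 fell by limma (median 1.54), and 35 had a positive log2 change. At an unadjusted p, by edgeR and by DESeq2, 0 clustered genes fell, but without trametinib replicate 1, 3 PCDHA and 2 PCDHG genes fell. Of 6 classical cadherins, 2 rose and 2 fell (median -0.35), and of 9 non-clustered protocadherins, 2 rose and 4 fell (median -0.98). With panobinostat, 6 clustered, 3 classical and 8 non-clustered genes rose, with medians of 0.67, 0.79 and 1.96. The 6 are 15.0% of the clustered genes, the same share as among all tested genes. Among tested genes with a mean of 10 to 150, 8.39% rose. In the combination 11, 5 and 7 rose, with medians of 1.25, 0.79 and 3.31, and the 11 are 27.5% of the clustered genes, near the 24.5% of all tested genes. Of genes with a mean of 10 to 150, 19.6% rose. With trametinib the clustered share was 52.5%, beside 23.7% of all tested genes and 14.6% of those with a mean of 10 to 150. The limit from reads shared among PCDHA and among PCDHG genes holds for these clustered shares too. PCDHGC3 and PCDH20 were the 2 members that fell in the combination.

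**Figure D2:**
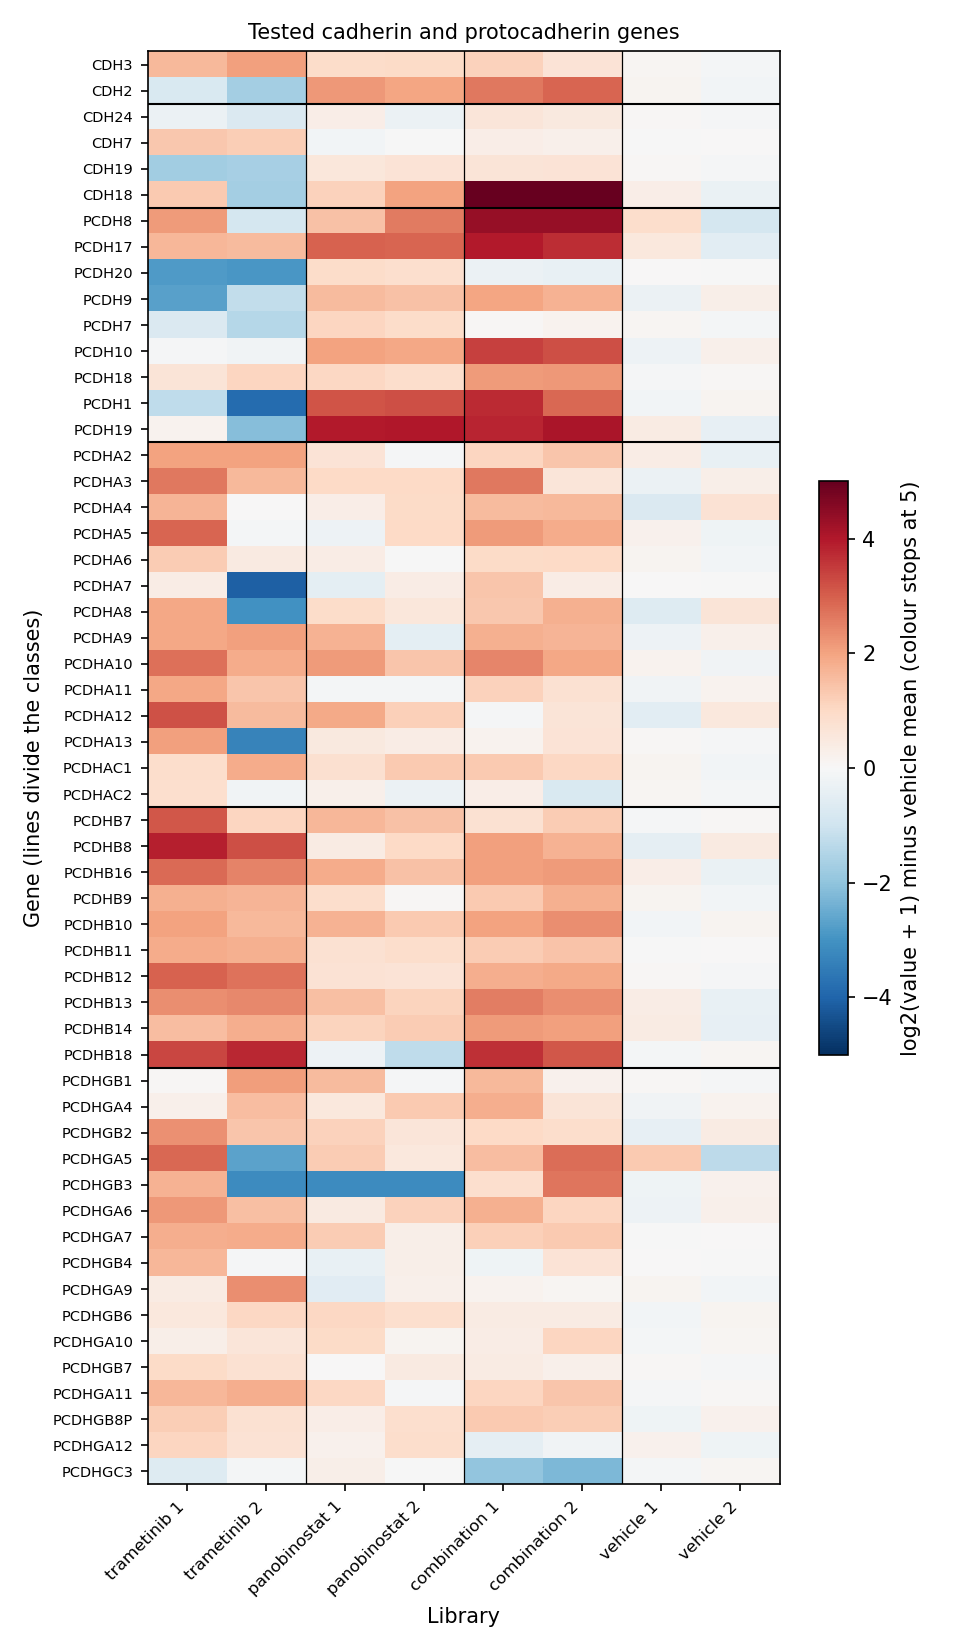
Colour gives log2(signal + 1) minus the vehicle mean for each of the 55 tested genes (rows, by class) in each of the 8 libraries (columns), and the colour stops at 5. The PCDHB rows are above vehicle in both trametinib and both combination libraries for all 10 genes, while PCDH20 and CDH19 are below vehicle in both trametinib libraries.

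Levels between genes were compared per kilobase of merged exon (GENCODE v29), leaving out PCDHA and PCDHG genes, whose constant exons are shared. PCDH20 stood highest with panobinostat, in the combination and in vehicle, and had 120.2 signal per kb with trametinib, 1614 with panobinostat, 697 in the combination and 876 in vehicle. CDH19 came next in vehicle at 87.3, followed by PCDH18 at 60.1, CDH24 at 59.1 and PCDH7 at 57.0. Those 3 neighbours spread over 57.2 and 63.0 for PCDH18, 61.5 and 56.6 for CDH24 and 60.2 and 53.8 for PCDH7 in the vehicle libraries, and so overlapped. With trametinib, PCDHB11 was the highest gene at 145 signal per kb, against 40.9 in vehicle. Its trametinib libraries had 148 and 142, above those of PCDH20 at 124 and 117, which overlapped those of PCDH18 at 93.0 and 125. N-cadherin (CDH2) was at 3.65 with trametinib, 36.3 with panobinostat, 59.5 in the combination and 8.52 in vehicle.

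PCDHB genes encode beta protocadherins, which lack the constant cytoplasmic end of the alpha and gamma proteins. Of the 10 tested, 9 rose with trametinib, 5 with panobinostat and 8 with both drugs against vehicle, and none fell in these 3 comparisons. Their median log2 changes were 2.23, 1.01 and 1.99. At an unadjusted p under 0.05, 0 PCDHB genes fell as well, and by edgeR and DESeq2 0 fell.

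PCDHB11 had the highest level of the class, 622 and 596 with trametinib, 295 and 321 with panobinostat, 419 and 466 in the combination and 169 and 175 in vehicle. Each treated library lay above both vehicle libraries, and the combination lay between the single drugs. Its log2 change was 1.82 ± 0.14 with trametinib (limma adjusted p = 4.79e-06), 0.84 ± 0.14 with panobinostat (0.00179) and 1.36 ± 0.14 in the combination (3.46e-05). Against the single drugs, the combination changed PCDHB11 by -0.46 ± 0.14 from trametinib and 0.52 ± 0.14 from panobinostat (limma adjusted p = 0.0287 and 0.0215). Both of those calls were lost without either combination library, the first also without either vehicle library and the second without either panobinostat library, at log2 changes of -0.54 to -0.39 and 0.45 to 0.60 over the 8 fits.

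PCDHB12 had 178 and 153 with trametinib, 37.7 and 36.3 with panobinostat, 81.9 and 85.2 in the combination and 23.5 and 21.4 in vehicle. The trametinib libraries were the highest and did not overlap any other group. Its log2 change was 2.82 ± 0.34 with trametinib (limma adjusted p = 0.000111) and 1.85 ± 0.34 in the combination (0.00152), and 0.70 ± 0.34 with panobinostat, which did not pass. The combination exceeded panobinostat by 1.15 ± 0.34 (limma adjusted p = 0.0364), a call lost without any one of the vehicle, panobinostat or combination libraries (1.13 to 1.18).

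PCDHB10 had 137 and 103 with trametinib, 114 and 83.7 with panobinostat, 136 and 172 in the combination and 30.1 and 36.4 in vehicle, and PCDHB14 had 153 and 187 with trametinib, 113 and 126 with panobinostat, 228 and 216 in the combination and 69.8 and 38.8 in vehicle. In both genes the combination libraries and the single-drug libraries were all above vehicle. PCDHB10 changed by 1.82 ± 0.32 with trametinib, 1.53 ± 0.32 with panobinostat and 2.17 ± 0.32 with both drugs (limma adjusted p = 0.00118, 0.00627 and 0.000393). PCDHB14 changed by 1.68 ± 0.31, 1.18 ± 0.31 and 2.07 ± 0.31 in the same order (limma adjusted p = 0.00141, 0.017 and 0.000395). The panobinostat call was lost for PCDHB10 without vehicle replicate 1 or panobinostat replicate 1 (1.31 to 1.76 over the 8 fits) and for PCDHB14 without vehicle replicate 2 or either panobinostat library (0.77 to 1.60).

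PCDHB13 had 83.2 and 88.4 with trametinib, 46.9 and 35.3 with panobinostat, 99.5 and 83.7 in the combination and 21.1 and 11.9 in vehicle, and PCDHB16 had 92.3 and 73.3 with trametinib, 46.9 and 35.3 with panobinostat, 53.9 and 56.3 in the combination and 15.6 and 9.50 in vehicle. Again all 6 treated libraries were above both vehicle libraries in each gene. PCDHB13 changed by 2.36 ± 0.43 with trametinib, 1.31 ± 0.43 with panobinostat and 2.45 ± 0.43 with both drugs (limma adjusted p = 0.0014, 0.0451 and 0.00111), and PCDHB16 by 2.65 ± 0.46, 1.66 ± 0.46 and 2.08 ± 0.46 (0.00102, 0.0224 and 0.00409). By edgeR the panobinostat change of PCDHB13 did not pass. The panobinostat calls did not hold without a vehicle or panobinostat library in PCDHB16 (1.32 to 1.99), nor in PCDHB13, where a combination library left out ended the call too (0.92 to 1.70).

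PCDHB9 had 123 and 118 with trametinib, 65.2 and 37.3 with panobinostat, 89.0 and 123 in the combination and 38.5 and 32.5 in vehicle, and PCDHB8 had 44.1 and 27.1 with trametinib, 3.06 and 5.04 with panobinostat, 11.7 and 9.13 in the combination and 1.20 and 3.17 in vehicle. PCDHB9 overlapped vehicle in no trametinib or combination library, and PCDHB8 likewise, whereas panobinostat overlapped vehicle in both. PCDHB9 changed by 1.74 ± 0.38 with trametinib and 1.54 ± 0.38 in the combination (limma adjusted p = 0.00401 and 0.00761), the combination call being lost without vehicle replicate 2 or combination replicate 2 (1.31 to 1.77). PCDHB8 changed by 3.56 ± 0.94 with trametinib (0.0108), a call lost without vehicle replicate 1 (3.10 to 4.01). It met the filter through its trametinib mean of 35.6, beside 4.05 with panobinostat, 10.4 in the combination and 2.19 in vehicle. Its call is thus not independent of that high group.

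PCDHB18, annotated as a transcribed pseudogene, had 23.1 and 31.1 with trametinib, 1.02 and 0 with panobinostat, 29.3 and 19.8 in the combination and 1.20 and 1.58 in vehicle. Trametinib and the combination stood above panobinostat and vehicle, whose libraries held 0 to 2 reads. PCDHB18 met the filter only through trametinib and the combination, so its calls are not independent of those high groups. Its fitted log2 change depends on the pseudocount at such low values and was 3.54 ± 1.03 with trametinib, 3.39 ± 1.03 in the combination and 4.14 ± 1.03 for the combination against panobinostat (limma adjusted p = 0.0176, 0.0213 and 0.0174). A vehicle library left out ended the first 2 calls, and a combination library left out ended the last 2, as did panobinostat replicate 2 for the last (3.33 to 3.75, 3.12 to 3.67 and 3.63 to 4.65). PCDHB7 had 40.1 and 9.04 with trametinib, 14.3 and 12.1 with panobinostat, 7.02 and 10.6 in the combination and 3.61 and 3.96 in vehicle and passed in no comparison. Reads of 50 bases would not separate all PCDHB genes: the share of a gene's 50-base stretches found in another member had a median of 13.4% in the class and reached 43.7% in PCDHB8 and 34.2% in PCDHB10.

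PCDHA genes rose with trametinib in 6 of 14 tested, with panobinostat in 0 and in the combination in 2, by limma. Of all tested genes 23.7%, 15.0% and 24.5% rose in these comparisons, so the last 2 counts are below the share of all genes. The median log2 changes were 1.38, 0.53 and 1.20. With panobinostat, 2 PCDHA genes were higher at an unadjusted p under 0.05 (PCDHA10 and PCDHAC1), 0 by edgeR and 1 by DESeq2. PCDHAC1, a C-type gene at the end of the variable array, had 72.2 and 143 with trametinib, 69.3 and 97.8 with panobinostat, 97.2 and 80.6 in the combination and 43.3 and 34.8 in vehicle, so that all treated libraries were above vehicle. It changed by 1.36 ± 0.40 with trametinib and 1.17 ± 0.40 in the combination (limma adjusted p = 0.0184 and 0.0359). PCDHA9 had 74.2 and 81.4 with trametinib, 65.2 and 13.1 with panobinostat, 66.7 and 62.4 in the combination and 15.6 and 22.2 in vehicle, and its trametinib libraries were the highest. PCDHA2 had 45.1 and 45.2 with trametinib, 17.3 and 10.1 with panobinostat, 23.4 and 28.9 in the combination and 13.8 and 7.92 in vehicle, and PCDHA11 had 53.2 and 36.2 with trametinib, 12.2 and 12.1 with panobinostat, 30.4 and 22.8 in the combination and 11.4 and 15.0 in vehicle. In both genes the trametinib libraries overlapped no other group.

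PCDHA10 had 30.1 and 16.1 with trametinib, 19.4 and 11.1 with panobinostat, 24.6 and 16.7 in the combination and 4.21 and 3.17 in vehicle, and PCDHA12 had 74.2 and 24.1 with trametinib, 30.6 and 18.1 with panobinostat, 7.02 and 12.2 in the combination and 4.81 and 11.1 in vehicle. The combination was above vehicle for PCDHA10 and overlapped it for PCDHA12. With trametinib, log2 changes were 2.00 ± 0.62 for PCDHA2, 2.00 ± 0.67 for PCDHA9, 2.31 ± 0.77 for PCDHA10, 1.67 ± 0.59 for PCDHA11 and 2.37 ± 0.81 for PCDHA12 (limma adjusted p = 0.0232, 0.0309, 0.0318, 0.0399 and 0.0335). In the combination, PCDHA10 changed by 2.19 ± 0.77 (0.0393). None of the 6 trametinib calls held without either vehicle library, and further libraries ended the calls of PCDHA9 (either combination library), PCDHA10 (panobinostat replicate 1), PCDHA11 (any panobinostat or combination library) and PCDHA12 (trametinib replicate 1 or either panobinostat library). Without 1 library, their log2 changes were 1.64 to 2.37 for PCDHA2, 1.76 to 2.24 for PCDHA9, 1.87 to 2.74 for PCDHA10, 1.40 to 1.94 for PCDHA11, 1.58 to 3.17 for PCDHA12 and 0.88 to 1.85 for PCDHAC1. The 2 combination calls were lost without any one of the vehicle, panobinostat or combination libraries (1.93 to 2.46 for PCDHA10 and 1.01 to 1.32 for PCDHAC1).

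Trametinib replicates disagreed in other PCDHA genes. PCDHA7 had 21.1 and 0 with trametinib, 11.2 and 21.2 with panobinostat, 43.3 and 21.3 in the combination and 16.2 and 15.8 in vehicle, PCDHA8 had 30.1 and 0 with trametinib, 14.3 and 11.1 with panobinostat, 19.9 and 27.4 in the combination and 4.21 and 11.9 in vehicle, and PCDHA13 had 41.1 and 0 with trametinib, 13.3 and 12.1 with panobinostat, 10.5 and 15.2 in the combination and 9.63 and 8.71 in vehicle. Each was thus above vehicle in trametinib replicate 1 and at 0 in replicate 2. Without trametinib replicate 2, 12 PCDHA genes rose with trametinib, and without replicate 1, 3 fell. The other 5 tested PCDHA genes, PCDHA3, PCDHA4, PCDHA5, PCDHA6 and PCDHAC2, passed in no comparison and had group means between 7.68 (PCDHA5 in vehicle) and 70.9 (PCDHA6 in the combination). PCDHA values of single genes are uncertain, because a median of 49.3% of their 50-base stretches, constant exons included, occurs in another member, and no source used here says how such reads were divided in counting.

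PCDHG genes rose with trametinib in 6 of 16 tested, with panobinostat in 1 and in the combination in 1, while 1 fell in the combination. These are 37.5%, 6.25% and 6.25% of the 16, beside 23.7%, 15.0% and 24.5% of all tested genes that rose. The median log2 changes were 0.90, 0.58 and 0.93. PCDHGA7 had 162 and 169.8 with trametinib, 111 and 55.5 with panobinostat, 105 and 116 in the combination and 44.5 and 46.7 in vehicle, above vehicle in all 6 treated libraries. It changed by 1.84 ± 0.35 with trametinib and 1.26 ± 0.35 in the combination (limma adjusted p = 0.00195 and 0.0149), the second lost without any vehicle or combination library (1.19 to 1.32). PCDHGA6 had 65.2 and 41.2 with trametinib, 19.4 and 32.3 with panobinostat, 49.2 and 30.4 in the combination and 11.4 and 16.6 in vehicle, PCDHGA11 had 55.2 and 61.3 with trametinib, 35.7 and 16.1 with panobinostat, 36.3 and 45.6 in the combination and 16.2 and 17.4 in vehicle, and PCDHGB2 had 79.2 and 42.2 with trametinib, 35.7 and 24.2 with panobinostat, 31.6 and 28.9 in the combination and 11.4 and 20.6 in vehicle. In all 3 the lower trametinib library exceeded the higher vehicle library.

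With trametinib, PCDHGA6 changed by 1.84 ± 0.56, PCDHGA11 by 1.73 ± 0.53 and PCDHGB2 by 1.85 ± 0.56 (limma adjusted p = 0.0221, 0.0225 and 0.0214). PCDHGB7 had 146 and 129 with trametinib, 76.5 and 105 with panobinostat, 101 and 89.8 in the combination and 78.2 and 73.6 in vehicle and changed by 0.85 ± 0.28 with trametinib (limma adjusted p = 0.032). These 4 calls were lost without vehicle replicate 1, and all but that of PCDHGB2 also without vehicle replicate 2, at log2 changes of 1.51 to 2.16 for PCDHGA6, 1.66 to 1.81 for PCDHGA11, 1.40 to 2.29 for PCDHGB2 and 0.75 to 0.94 for PCDHGB7. PCDHGB6 had 124 and 176 with trametinib, 175 and 155 with panobinostat, 114 and 114 in the combination and 77.6 and 95.004 in vehicle, above vehicle in every treated library. It changed by 0.78 ± 0.26 with trametinib and 0.93 ± 0.26 with panobinostat (limma adjusted p = 0.0337 and 0.0247). The first call held only without trametinib replicate 1 (0.53 to 1.03), and the second was lost without any vehicle or panobinostat library (0.79 to 1.08).

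PCDHGC3, the first C-type gene of the gamma cluster, was the exception in direction. It had 103 and 155 with trametinib, 203 and 163 with panobinostat, 41.0 and 33.5 in the combination and 154 and 174 in vehicle, and both combination libraries were below every other library. The combination changed it by -2.12 ± 0.30 against vehicle, -1.74 ± 0.30 against trametinib and -2.27 ± 0.30 against panobinostat (limma adjusted p = 0.00028, 0.00189 and 0.000528). These 3 calls held in all 8 fits without 1 library. Neither single drug passed, at -0.37 with trametinib and 0.15 with panobinostat.

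The remaining 9 tested PCDHG genes passed in no comparison. They were PCDHGA4, PCDHGA5, PCDHGA9, PCDHGA10, PCDHGA12, PCDHGB1, PCDHGB3, PCDHGB4 and PCDHGB8P. Among them PCDHGB3 had 29.1 and 0 with trametinib, 0 and 0 with panobinostat, 15.2 and 56.3 in the combination and 6.62 and 9.50 in vehicle, at 0 in 3 libraries, and PCDHGA5 had 45.1 and 0 with trametinib, 14.3 and 8.07 with panobinostat, 17.6 and 42.6 in the combination and 14.4 and 1.58 in vehicle, with the vehicle libraries apart from each other. Group means of the other 7 lay between 8.06 (PCDHGB8P in vehicle) and 62.2 (PCDHGA12 with trametinib). Members share a median of 43.2% of their 50-base stretches with another member, up to 71.1%, so single PCDHG values carry the same uncertainty as PCDHA.

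**Figure D3:**
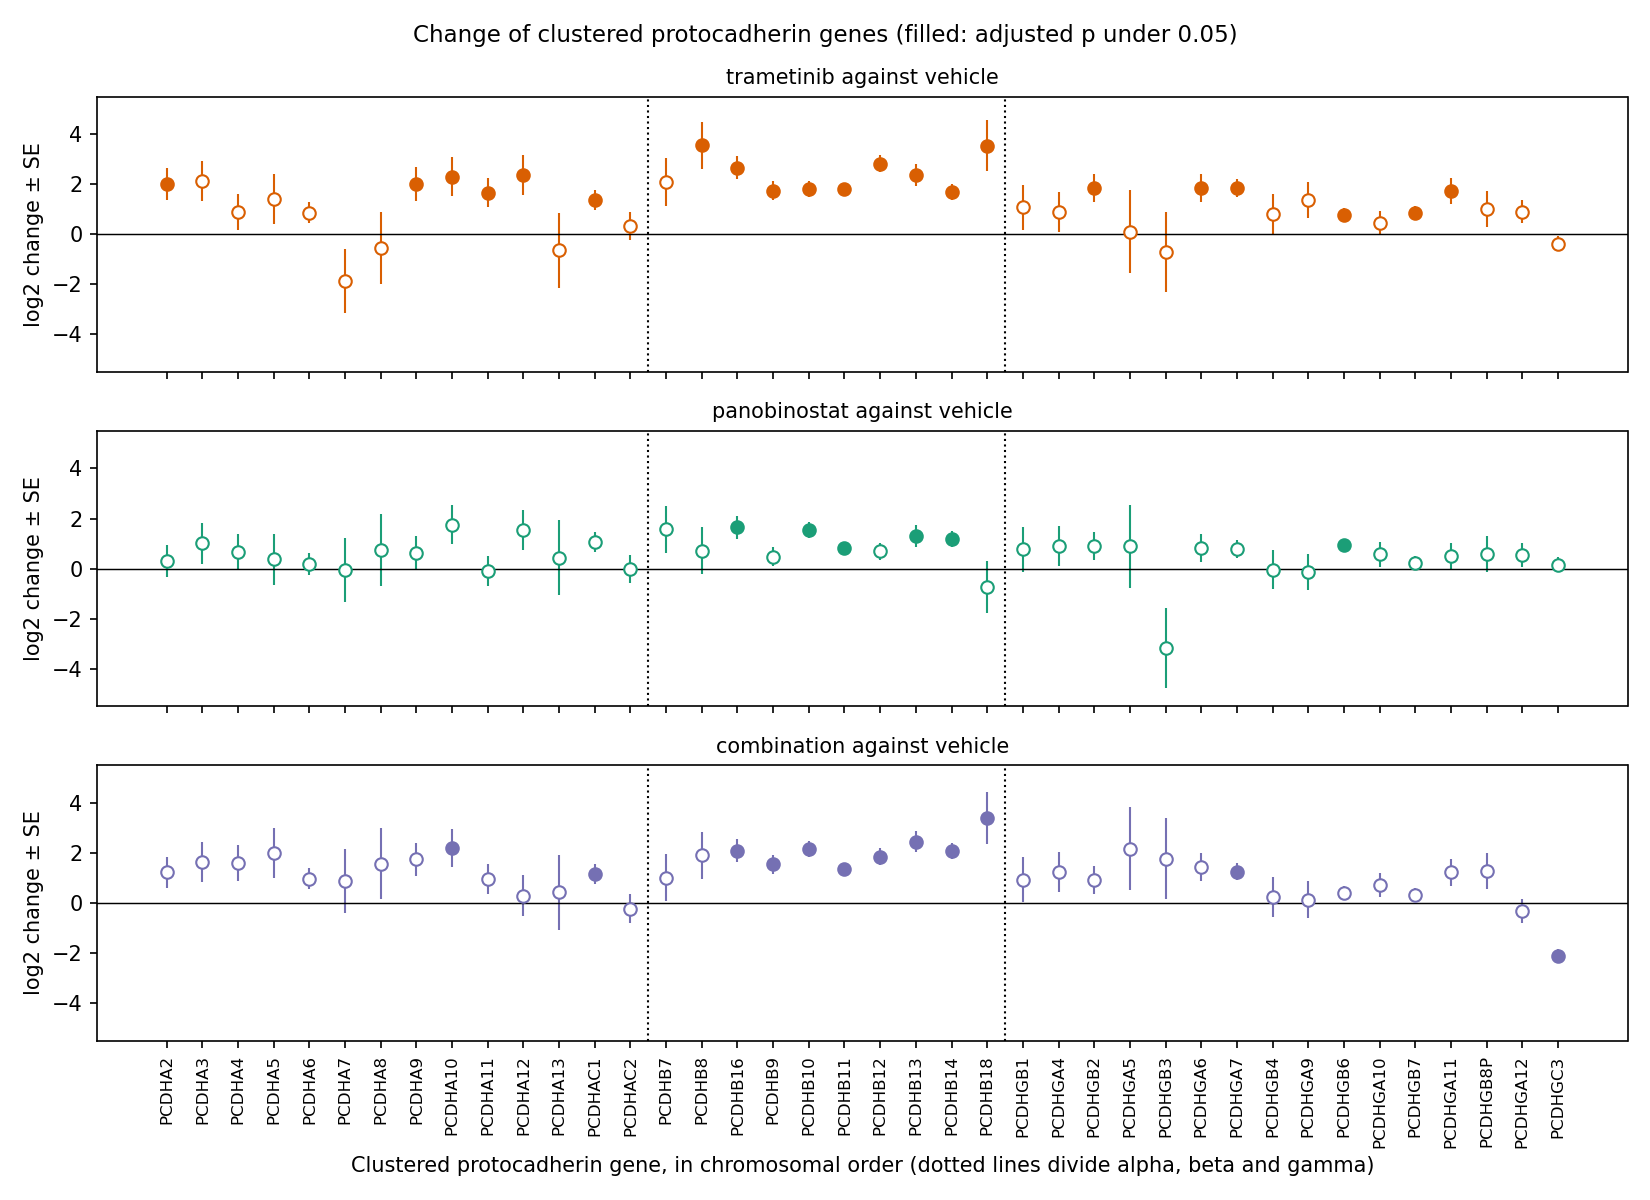
Log2 change against vehicle with its SE (vertical axis) for the 40 tested clustered protocadherin genes in chromosomal order (horizontal axis), one panel for each treatment. Filled points passed: 21 with trametinib, 9 of them in the beta cluster, 6 with panobinostat and 12 with both drugs, where PCDHGC3 alone is filled below 0.

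The presence of the shared promoter bases was set beside the trametinib calls as a description. All 8 tested PCDHB genes with a window hold them, and 7 rose with trametinib. In PCDHA, 3 of 8 tested genes that hold them rose, and 3 of 4 that do not hold them rose (PCDHA9, PCDHA11 and PCDHAC1). In PCDHG, 3 of 7 that hold them and 3 of 7 that do not rose. The split goes by the exact bases, and some windows without them carry a close variant, as in PCDHA9, PCDHA11, PCDHGA6 and PCDHGB2. Not holding the exact bases therefore does not mean that the element is absent.

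N-cadherin and P-cadherin, the type I cadherins above the level needed for a test, moved in opposite directions with trametinib. CDH2 had 24.1 and 12.1 with trametinib, 189.6 and 169 with panobinostat, 263 and 326 in the combination and 46.3 and 38.0 in vehicle. Trametinib lay below vehicle, and panobinostat and the combination above it, without overlap. Its log2 change was -1.25 ± 0.37 with trametinib (limma adjusted p = 0.0199), 2.07 ± 0.37 with panobinostat (0.00307) and 2.77 ± 0.37 in the combination (0.000225). The combination was 16.2-fold above trametinib alone (4.02 ± 0.37, limma adjusted p = 6.3e-05). The fall with trametinib did not pass without either vehicle library, and was -1.72 to -0.78 over the 8 fits.

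CDH3 had 432 and 585 with trametinib, 266 and 275 with panobinostat, 314 and 228 in the combination and 148 and 132 in vehicle, with all 6 treated libraries above vehicle and trametinib highest. It changed by 1.84 ± 0.21 with trametinib, 0.95 ± 0.21 with panobinostat and 0.93 ± 0.21 with both drugs (limma adjusted p = 7.74e-05, 0.00839 and 0.00487). The combination was below trametinib alone by -0.91 ± 0.21 on the log2 scale (0.00972). The panobinostat call was lost without vehicle replicate 2 or either panobinostat library (0.87 to 1.03), the combination call without combination replicate 1 (0.70 to 1.16), and the call against trametinib without combination replicate 2 (-1.14 to -0.68).

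E-cadherin, CDH1, stayed below the level needed for a test, with 19.1 and 13.1 with trametinib, 4.08 and 2.02 with panobinostat, 2.34 and 7.61 in the combination and 3.61 and 0.792 in vehicle. These values are 13 to 19 reads with trametinib and 1 to 6 reads in the other 6 libraries. The trametinib libraries were the highest 2 of the 8. CDH4 and CDH15, the other type I members, had group means of at most 6.57 and 3.04.

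CDH7 and CDH19 are neighbours on chromosome 18 in RefSeq, with 0 protein-coding genes between them, and trametinib moved them in opposite directions. CDH19, a type II cadherin known from Schwann cell precursors and melanoma, had 178 and 189.9 with trametinib, 881 and 965 with panobinostat, 928 and 954 in the combination and 630.1 and 568 in vehicle. Trametinib lay far below vehicle, and panobinostat and the combination lay together above it. CDH7 had 1304 and 1201 with trametinib, 476 and 515 with panobinostat, 653 and 613 in the combination and 513 and 521 in vehicle. Trametinib was the highest, the combination was just above vehicle, and panobinostat overlapped vehicle.

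CDH19 changed by -1.70 ± 0.11 with trametinib, 0.62 ± 0.11 with panobinostat and 0.65 ± 0.11 with both drugs (limma adjusted p = 2.28e-06, 0.00316 and 0.00107). The combination exceeded trametinib alone by 2.35 ± 0.11 (1.24e-06), and against panobinostat it changed CDH19 by 0.030 ± 0.11, which did not pass. All calls of CDH19 held without each library. CDH7 changed by 1.27 ± 0.10 with trametinib and 0.29 ± 0.10 in the combination, and by -0.98 ± 0.10 and 0.35 ± 0.10 in the combination against trametinib and against panobinostat (limma adjusted p = 7.67e-06, 0.0389, 0.000121 and 0.0333). Its changes against vehicle in the combination (0.25 to 0.34) and against panobinostat (0.30 to 0.41) did not pass without any one of the vehicle, panobinostat or combination libraries. Neither passed after TMM rescaling, nor did the first by edgeR. The panobinostat change of CDH7, -0.061 ± 0.10, did not pass.

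CDH18, a type II cadherin of the nervous system, stood out in the combination, with 7.02 and 0 with trametinib, 6.12 and 12.1 with panobinostat, 110.0 and 176 in the combination and 3.01 and 1.58 in vehicle. Both combination libraries were above every other library. CDH18 met the filter only through the combination, with group means of 3.51 with trametinib, 9.11 with panobinostat and 2.30 in vehicle. Its calls are thus not independent of that high group. Its log2 change in the combination was 5.45 ± 1.11 against vehicle, 5.63 ± 1.11 against trametinib and 3.86 ± 1.11 against panobinostat (limma adjusted p = 0.00268, 0.00432 and 0.0318). The second call was lost without combination replicate 2 (4.13 to 7.13) and the third without any one of the vehicle, panobinostat or combination libraries (3.42 to 4.30). The third was also lost with a pseudocount of 0.5. Neither single drug passed, and the interaction did not pass either, at 4.05 ± 1.57. CDH24 had 179.5 and 134 with trametinib, 277 and 179 with panobinostat, 335 and 307 in the combination and 231 and 212 in vehicle, and only the combination against trametinib passed (1.05 ± 0.24, limma adjusted p = 0.00953), lost without either combination library (0.83 to 1.26).

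**Figure D4:**
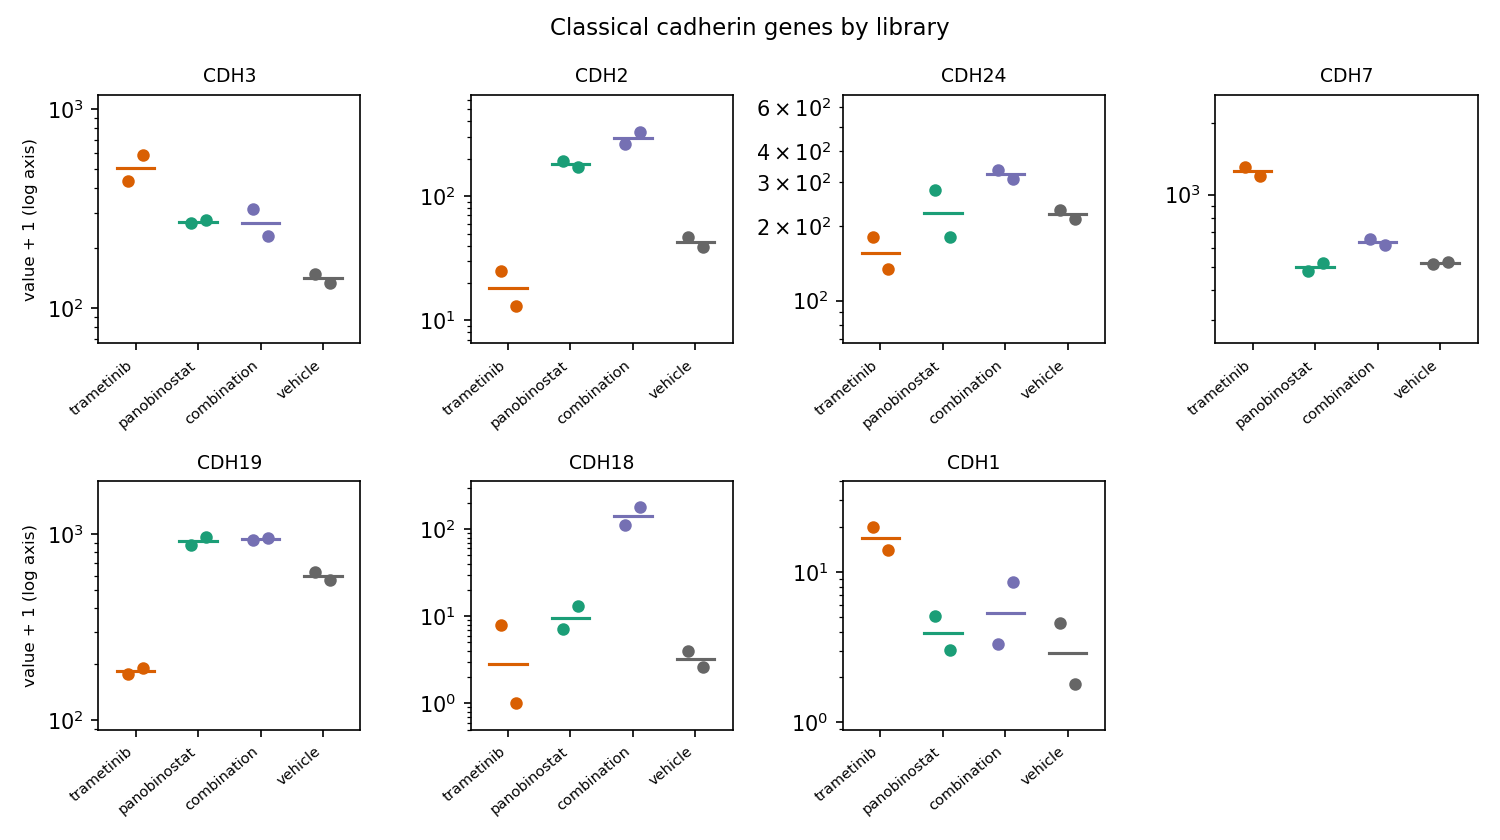
Normalised signal plus 1 on a log axis (vertical) by treatment (horizontal) for the 6 tested classical cadherins and CDH1, with a point for each library and a line at the geometric mean of 2. CDH2 and CDH19 lie below vehicle with trametinib and above it in the other 2 treatments, and both combination libraries of CDH18 lie above the other 6.

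Non-clustered protocadherins rose with panobinostat in 8 of 9 tested genes and fell with trametinib in 4. PCDH20, a protocadherin often silenced in tumours, had the highest signal of the class in vehicle, with panobinostat and in the combination but lay below PCDH18 with trametinib, with 591 and 558 with trametinib, 7921 and 7501 with panobinostat, 3381 and 3277 in the combination and 4201 and 4169 in vehicle. Trametinib lay below, and panobinostat above, both other groups, without overlap. Its log2 change was -2.86 ± 0.063 with trametinib (7.28-fold lower, limma adjusted p = 6.69e-09), 0.88 ± 0.063 with panobinostat (2.15e-05) and -0.33 ± 0.063 in the combination (0.00187). The combination was above trametinib by 2.53 ± 0.063 and below panobinostat (-1.21 ± 0.063, limma adjusted p = 5.03e-08 and 2.07e-06). All 6 calls of PCDH20 held without each library.

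PCDH7, which binds a protein phosphatase, had 421 and 257 with trametinib, 1468 and 1309 with panobinostat, 727 and 782 in the combination and 737 and 659 in vehicle. The combination overlapped vehicle, with trametinib below and panobinostat above. PCDH7 changed by -1.08 ± 0.20 with trametinib and 0.99 ± 0.20 with panobinostat (limma adjusted p = 0.00142 and 0.00487), and in the combination by 1.19 ± 0.20 against trametinib and -0.88 ± 0.20 against panobinostat (0.00162 and 0.0104). The panobinostat call was lost without panobinostat replicate 1 (0.91 to 1.07) and the last call without any panobinostat or combination library (-0.96 to -0.79).

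PCDH9 had 12.04 and 36.2 with trametinib, 259 and 238 with panobinostat, 337 and 283 in the combination and 69.2 and 105 in vehicle, and PCDH1 had 5.01 and 0 with trametinib, 125 and 135 with panobinostat, 193 and 105 in the combination and 12.04 and 15.0 in vehicle. In both genes trametinib was lowest, and panobinostat and the combination were above vehicle. PCDH9 changed by -1.97 ± 0.45 with trametinib, 1.53 ± 0.45 with panobinostat, 1.85 ± 0.45 in the combination and 3.82 ± 0.45 in the combination against trametinib (limma adjusted p = 0.00526, 0.0292, 0.00723 and 0.000246). PCDH1 changed by -2.56 ± 0.80, 3.18 ± 0.80, 3.31 ± 0.80 and 5.87 ± 0.80 in the same order (0.0243, 0.0154, 0.0071 and 0.000577).

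Trametinib replicate 2 held no read of PCDH1. The panobinostat call and the trametinib call of PCDH1 were lost without any vehicle or panobinostat library (3.03 to 3.33 and -3.85 to -1.27), the trametinib call also without combination replicate 1, and the combination call without combination replicate 1 (2.87 to 3.75). For PCDH9, the trametinib call was lost without vehicle replicate 2 (-2.72 to -1.21), the combination call without vehicle replicate 1 or combination replicate 1 (1.55 to 2.14), and the panobinostat call without any one of the vehicle, panobinostat or combination libraries (1.24 to 1.83).

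PCDH19, whose loss causes an X-linked epilepsy, had 4.01 and 0 with trametinib, 68.3 and 69.6 with panobinostat, 60.9 and 74.5 in the combination and 4.81 and 2.38 in vehicle, and PCDH10, a protocadherin silenced by methylation in several tumours, had 38.1 and 35.2 with trametinib, 160.0 and 152 with panobinostat, 434 and 374 in the combination and 33.1 and 46.7 in vehicle. Panobinostat and the combination were above trametinib and vehicle in both genes. PCDH19 met the filter only through panobinostat and the combination, so its calls are not independent of those high groups. PCDH19 changed by 3.98 ± 0.89 with panobinostat, 3.95 ± 0.89 in the combination and 4.93 ± 0.89 in the combination against trametinib (limma adjusted p = 0.00875, 0.00486 and 0.00276), the first lost without vehicle replicate 2 or either panobinostat library (3.59 to 4.37). PCDH10 changed by 1.96 ± 0.29, 3.32 ± 0.29 and 3.43 ± 0.29 in these comparisons (0.000967, 1.27e-05 and 3.34e-05) and by 1.36 ± 0.29 in the combination against panobinostat (0.00747), the last lost without either panobinostat library or combination replicate 1 (1.26 to 1.47). With trametinib alone, PCDH10 changed by -0.10 ± 0.29 and PCDH19 by -0.98 ± 0.89, and neither passed.

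PCDH18 had 622 and 836 with trametinib, 829.8 and 734 with panobinostat, 1735 and 1804 in the combination and 382 and 421 in vehicle, and PCDH17 had 21.1 and 20.1 with trametinib, 54.0 and 51.4 with panobinostat, 108 and 89.8 in the combination and 9.03 and 3.96 in vehicle. Both were above vehicle in all treated libraries and highest in the combination. PCDH18 changed by 0.84 ± 0.14 with trametinib, 0.96 ± 0.14 with panobinostat and 2.14 ± 0.14 with both drugs, and the combination exceeded trametinib by 1.29 ± 0.14 and panobinostat by 1.18 ± 0.14 (limma adjusted p = 0.000862, 0.00106, 2.62e-06, 0.000163 and 0.000317). These 5 calls held without each library. PCDH17 changed by 1.61 ± 0.54 with trametinib, 2.93 ± 0.54 with panobinostat, 3.82 ± 0.54 in the combination and 2.203 ± 0.54 in the combination against trametinib (limma adjusted p = 0.0313, 0.00332, 0.000298 and 0.0124). The trametinib call of PCDH17 held without vehicle replicate 1 or either trametinib library only (1.11 to 2.12), and the last call was lost without either combination library (2.07 to 2.33). PCDH8 had 7.02 and 0 with trametinib, 4.08 and 10.1 with panobinostat, 36.3 and 36.5 in the combination and 2.41 and 0 in vehicle. It changed by 4.34 ± 1.35 in the combination against vehicle (limma adjusted p = 0.0235), a call lost without any vehicle or combination library (3.46 to 5.23). PCDH8 met the filter only through the combination, so this call is not independent of that high group.

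**Figure D5:**
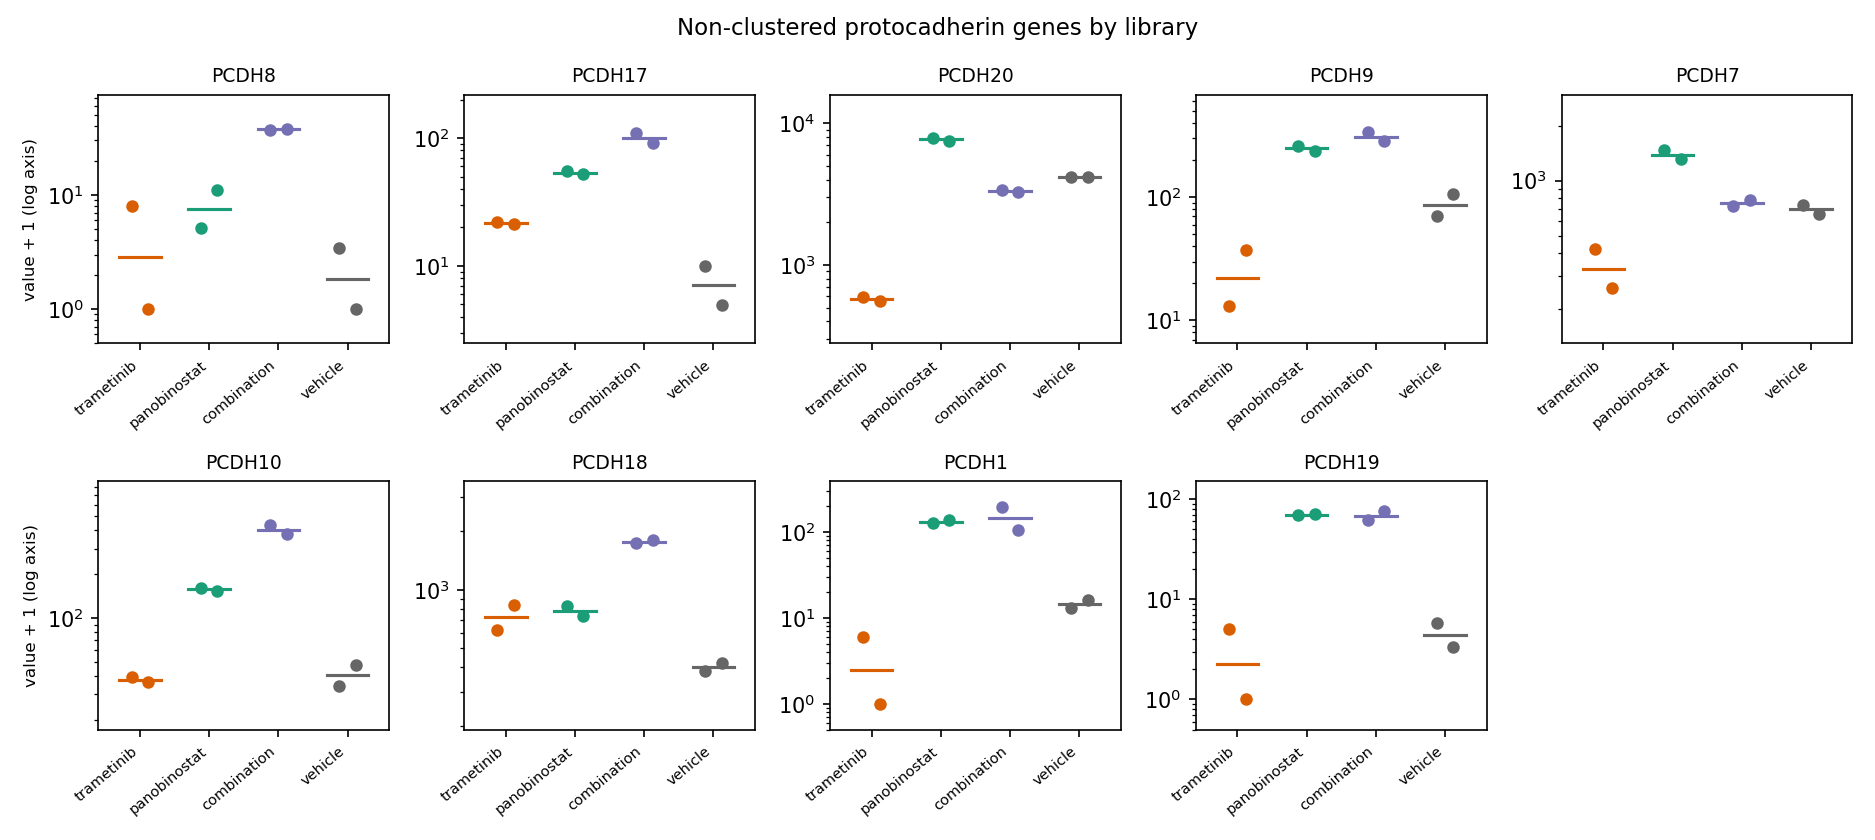
Normalised signal plus 1 on a log axis (vertical) by treatment (horizontal) for the 9 tested non-clustered protocadherins, with a point for each library and a line at the geometric mean of 2. PCDH20, PCDH7, PCDH9 and PCDH1 are below vehicle with trametinib, and all 9 genes have a panobinostat mean above the vehicle mean.

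Set against the single drugs, the combination changed the classes differently in number. Against trametinib, 12 of 55 members were higher (17.6% of all tested genes) and 4 were lower (15.2%). The 12 were 4 classical and 8 non-clustered genes, and the 4 were CDH3, CDH7, PCDHB11 and PCDHGC3. Without trametinib replicate 1, 20 were higher, without trametinib replicate 2, 9 were lower, and without combination replicate 2, 2 were lower. Against panobinostat, 7 were higher (10.9%) and 3 were lower (13.1%), the lower being PCDH7, PCDH20 and PCDHGC3. The 7 fell in number without any vehicle, panobinostat or combination library named above as ending a call, and grew without a trametinib library. Of tested genes with a mean of 10 to 150, 14.9% were higher and 4.17% lower in the combination than with trametinib. Against panobinostat, 3.80% of them were higher and 2.68% lower.

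The interaction is the log2 change of the combination against trametinib minus that of panobinostat against vehicle, and it asks whether the drugs' changes add up on that scale. It passed above 0 in 5 of 55 members (10.2% of all tested genes) and below 0 in 7 (9.04%). Above 0 were CDH2, CDH19, PCDH9, PCDH10 and PCDH20, and below 0 were CDH3, CDH7, PCDHB11, PCDHB12, PCDHB16, PCDHGB6 and PCDHGC3. Of the 40 clustered genes, 0 passed above 0 by limma and 5 below, with a median of -0.96 beside 0.076 over all tested genes and 0.25 over genes with a mean of 10 to 150. Of genes with that mean, 3.51% passed above 0 and 1.58% below, beside 12.5% of the clustered genes below. PCDHB11, among those clustered genes, lay outside that range with a mean of 383. At an unadjusted p under 0.05, 1 clustered gene, PCDHGB3, was above 0, by edgeR 0 and by DESeq2 1, and without trametinib replicate 1, 3 PCDHA and 2 PCDHG genes passed above 0. Over all members, the number above 0 was 15 without trametinib replicate 1, 8 without trametinib replicate 2, 3 without panobinostat replicate 1 and 2 without each of the other 5 libraries. The number below 0 was 12 and 13 without trametinib replicates 1 and 2, 4 without combination replicate 1 and 3 without either vehicle library, panobinostat replicate 1 or combination replicate 2.

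The 29 members below the test filter are low in every group, and 2 of them, CDH5 and CDH11, were at 0 in all 8 libraries. The 10 with the highest group mean were PCDHB2, PCDHGA2, PCDHGB5, PCDHB15, CDH1, CDH10, PCDHGC4, PCDHGA8, PCDHB19P and CDH23, with highest group means between 10.0 and 19.6. PCDHB15 had 6.02 and 27.1 with trametinib, 9.17 and 3.02 with panobinostat, 16.4 and 12.2 in the combination and 3.01 and 1.58 in vehicle, PCDHB2 had 5.01 and 34.2 with trametinib, 7.14 and 0 with panobinostat, 15.2 and 7.61 in the combination and 0.602 and 0 in vehicle, and PCDHGB5 had 17.0 and 17.1 with trametinib, 2.04 and 6.05 with panobinostat, 15.2 and 12.2 in the combination and 3.61 and 0.792 in vehicle. In these 3 genes both trametinib libraries were above both vehicle libraries, with no test. PCDHB19P went the other way, with 0 and 0 with trametinib, 8.16 and 12.1 with panobinostat, 15.2 and 4.56 in the combination and 2.41 and 0.792 in vehicle, and PCDHGA2, PCDHGA8, PCDHGC4 and CDH10 were above vehicle in trametinib replicate 1 and at 0 in replicate 2. The other 19 had group means of at most 7.60. The 4 atypical cadherins, CDH13, CDH17, CDH23 and CDH26, were all below the filter.

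Partner proteins of cadherins were counted by lists chosen with earlier results of these data known. Beside these counts stand the shares of all tested genes, of which 23.7% rose and 27.4% fell with trametinib, 15.0% rose and 15.6% fell with panobinostat, and 24.5% rose and 25.5% fell in the combination. Of 12 tested catenins and tail-binding proteins, 5 rose and 3 fell with trametinib, 5 rose and 1 fell with panobinostat, and 7 rose and 1 fell in the combination. The 3 that fell with trametinib are about the share of all tested genes. CTNNB1, beta-catenin, had 3140.2 and 2931 with trametinib, 10113 and 9578 with panobinostat, 3574 and 3479 in the combination and 7922 and 8272 in vehicle, and JUP, plakoglobin, which binds the same cadherin tail, had 3246 and 3100.4 with trametinib, 2871 and 2792 with panobinostat, 3963 and 4480.2 in the combination and 1084 and 1206 in vehicle. CTNNB1 was lower than vehicle in both groups with trametinib, and JUP was higher in all treated groups. CTNNB1 changed by -1.42 ± 0.059 with trametinib and -1.20 ± 0.059 in the combination (limma adjusted p = 1.37e-07 and 4.61e-07), and JUP by 1.47 ± 0.081, 1.31 ± 0.081 and 1.88 ± 0.081 with trametinib, panobinostat and the combination (7.06e-07, 1.29e-05 and 2.17e-07). CTNND1, p120-catenin, which stabilises cadherins at the membrane, had 96.3 and 193 with trametinib, 68.3 and 65.5 with panobinostat, 108 and 125 in the combination and 36.7 and 52.3 in vehicle and changed by 1.62 ± 0.38 with trametinib. CTNNA2, the neuronal alpha-catenin, had 0 and 0 with trametinib, 49.95 and 67.6 with panobinostat, 59.7 and 60.9 in the combination and 0.602 and 0 in vehicle. It was present in the panobinostat and combination libraries and had 1 read in 1 of the other 4. CTNNA2 met the filter only through those high groups, so any call of it is not independent of them. The same holds for CTNNA3 with trametinib and the combination. It had 16.0 and 22.1 with trametinib, 0 and 6.05 with panobinostat, 35.1 and 45.6 in the combination and 6.62 and 2.38 in vehicle. The counts of catenins above include both genes.

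Repressors of CDH1 moved both ways, with 3 of 7 higher and 2 lower with trametinib. SNAI2 (Slug) had 10786 and 10942 with trametinib, 5061 and 5035 with panobinostat, 4618 and 4126 in the combination and 3599 and 3714 in vehicle and changed by 1.57 ± 0.063 with trametinib (limma adjusted p = 1.01e-07). ZEB2 changed by 0.71 ± 0.079, TWIST1 by 0.36 ± 0.087 and TCF3 by -1.06 ± 0.087 with trametinib (6.17e-05, 0.00648 and 8.74e-06). SNAI1 (Snail) had 1.00 and 0 with trametinib, 16.3 and 24.2 with panobinostat, 7.02 and 3.04 in the combination and 18.1 and 43.5 in vehicle, at 1 read and 0 with trametinib.

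Of 15 tested chromatin factors known at the clustered locus, 1 rose and 10 fell with trametinib, 11 fell with panobinostat and 10 fell in the combination, with median log2 changes of -0.34, -0.70 and -0.67. Of all tested genes 27.4%, 15.6% and 25.5% fell, with medians of -0.073, 0.0021 and 0.031. CTCF had 1221 and 1061 with trametinib, 769.7 and 842 with panobinostat, 698 and 616 in the combination and 1498 and 1388 in vehicle and changed by -0.34 ± 0.11, -0.84 ± 0.11 and -1.14 ± 0.11 with trametinib, panobinostat and the combination (limma adjusted p = 0.0257, 0.000514 and 2.48e-05). The cohesin subunits SMC1A, SMC3 and RAD21 changed by -1.52, -1.51 and -1.27 with trametinib. SMCHD1, which represses clustered protocadherins in mice, had 654 and 736 with trametinib, 1209 and 1039.6 with panobinostat, 819 and 794 in the combination and 1642 and 1634 in vehicle and changed by -1.24 ± 0.10 with trametinib (limma adjusted p = 8.82e-06). DNMT1, the maintenance DNA methyltransferase, had 732 and 446 with trametinib, 1367 and 1220.1 with panobinostat, 668 and 633 in the combination and 2926 and 3029 in vehicle and changed by -2.38 ± 0.19 with trametinib (6.62e-06). SETDB1 went the other way with trametinib, with 991 and 1218, against 724 and 744 with panobinostat, 708 and 659 in the combination and 773 and 808 in vehicle. The part of these genes in the changes of the clusters was not tested.

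Among larger cadherin relatives, 4 of 11 tested rose with trametinib, 4 with panobinostat and 6 with both drugs. FAT4 had 285 and 363 with trametinib, 344 and 411 with panobinostat, 762 and 706 in the combination and 95.1 and 108 in vehicle, and CELSR3 had 117 and 74.3 with trametinib, 298 and 469 with panobinostat, 362 and 364 in the combination and 104 and 124 in vehicle. FAT4 changed by 1.65 ± 0.18, 1.88 ± 0.18 and 2.84 ± 0.18 with trametinib, panobinostat and the combination (limma adjusted p = 4.83e-05, 8.81e-05 and 1.83e-06). CELSR3 passed with panobinostat and in the combination (1.71 ± 0.28 and 1.66 ± 0.28). Of 4 tested desmosome genes, DSG2, a desmosomal cadherin, had 734 and 690.2 with trametinib, 1236 and 1216 with panobinostat, 1034 and 948 in the combination and 974 and 960.3 in vehicle and fell with trametinib (-0.44 ± 0.088, limma adjusted p = 0.00236). Of 10 tested proteases that cut cadherins and gamma-secretase genes, 5 rose and 1 fell with trametinib. ADAM15 had 173 and 144 with trametinib, 451 and 453 with panobinostat, 453 and 586 in the combination and 565 and 586 in vehicle and was the one that fell (-1.86 ± 0.16, limma adjusted p = 1.19e-05), while NCSTN, a gamma-secretase subunit, changed by 0.82 ± 0.082 (3.08e-05).

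Markers of other cell types moved beside these genes, with no test, and their part in the results was not tested. The fibroblast list, with 6 of 6 genes in the table, summed to 810.4 and 1125 with trametinib, 1016 and 1015 with panobinostat, 1271 and 1307 in the combination and 403 and 418 in vehicle, higher in every treated library. Of it COL1A1 was 511 and 821 with trametinib, 509.7 and 593 with panobinostat, 608 and 774 in the combination and 133 and 149 in vehicle, while DCN was at 7.02 or less in every library. LUM was 246 and 169 with trametinib, 450 and 405 with panobinostat, 592 and 502 in the combination and 255 and 259 in vehicle. With trametinib it thus lay below vehicle, unlike the sum. MBP, a myelin gene, was 3381 and 3341 with trametinib, 1055 and 1049.7 with panobinostat, 1120.4 and 1308 in the combination and 1038 and 1039 in vehicle. The neuronal and glial markers SNAP25, SYT1 and GFAP were at 23.4 or less in every library. The endothelial list, with 6 of 7 genes in the table, summed to 144 and 102 with trametinib, 9.17 and 5.04 with panobinostat, 53.9 and 39.6 in the combination and 9.63 and 5.54 in vehicle, of which VWF was 144 and 85.4 with trametinib, and CDH5 was at 0 throughout. The epithelial list, with 6 of 8 genes in the table and CDH1 among them, summed to 89.3 and 37.2 with trametinib, 42.8 and 25.2 with panobinostat, 62.0 and 132 in the combination and 24.7 and 23.8 in vehicle. The immune list, with 4 of 6 genes in the table, summed to 78.2 and 1.00 with trametinib, 91.7 and 76.6 with panobinostat, 115 and 89.8 in the combination and 52.4 and 70.5 in vehicle, most of it LYZ.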

How the data were processed

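The kit was NuGEN's Ovation system for FFPE RNA, used on total RNA per the labels' protocols. The submitters' processing notes list Cufflinks 2.2.1, DESeq2 and TopHat2 2.0.13, with build hs37d5 given for trametinib and vehicle libraries only. The authors deposited 1 normalised signal value per gene and library. Values are whole multiples of a step per library, and dividing by it gave whole reads for 100% of values within a tolerance of 1e-06, so each signal is a count over a size factor.

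From these values, log2(signal + 1) of 13320 genes with a mean of at least 10 was fitted with limma 3.58.1 (R 4.3.3, intensity trend, 4 residual and 5.32 prior degrees of freedom) over all 8 libraries, with Benjamini-Hochberg adjustment and a threshold of 0.05. Low values understate changes on this scale, and a single 0 can inflate them. Alternatives were pseudocounts of 0.5 and 5, no filter, a filter at 50, a replicate block, TMM factors, each library left out, and edgeR 4.0.16 and DESeq2 1.42.0 on recovered reads. On those reads edgeR called 6783 genes with trametinib, 4273 with panobinostat and 6737 for both drugs against vehicle. The fit was also run on simulated counts, drawn with the same spread setting for all genes and libraries. They do not copy the zeros or the lower replicate correlation of the trametinib libraries. No conclusion on the calls is drawn from them. No source used here says whether reads were counted by strand or how reads shared between paralogs were counted.

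Members and gene lists were chosen with earlier results of these data known. Tested members that passed in at least 1 of 6 comparisons were named with all values, CDH1, CDH2, CDH3 and CDH19 in any case, and genes of other lists only where they passed. Promoter sequences are RefSeq's (GRCh38.p14), matched by symbol for 63 of 84 members, and transcripts and exon lengths are those of GENCODE v29 for all 84. The 9 bases shared by a cluster were found from these promoters. The summed level of the neuronal and glial marker list is not reported here.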

Additional observations from a re-analysis of the deposited data

Results flagged for a closer look

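In 12 members the effect of adding the second drug differed with the first drug present, by the limma test of the interaction (the log2 change of the combination against trametinib minus that of panobinostat against vehicle). The count is near the share of all tested genes, since 5 of 55 members were above 0 and 7 below, beside 10.2% and 9.04% of all tested genes. Of tested genes with a mean of 10 to 150, 3.51% were above 0 and 1.58% below. CDH3, CDH7, CDH19, PCDH9, PCDH10, PCDH20 and PCDHB11 had means above 150, so these shares are no like background for them. At a mean of 10 to 150, CDH2 was the only member above 0. PCDHB12, PCDHB16, PCDHGB6 and PCDHGC3 were the members below 0 at that level. The classical cadherins among the 12 members were CDH2 at 1.95 ± 0.53 (log2 ± SE, limma adjusted p = 0.0306), CDH19 at 1.73 ± 0.16 (0.000127), CDH3 at -1.85 ± 0.30 (0.0025) and CDH7 at -0.92 ± 0.14 (0.00222). Non-clustered protocadherins gave 2.28 ± 0.64 for PCDH9, 1.46 ± 0.40 for PCDH10 and 1.65 ± 0.089 for PCDH20 (limma adjusted p = 0.0343, 0.0325 and 7.35e-06). Clustered protocadherins were all below 0, with PCDHB11 at -1.30 ± 0.19, PCDHB12 at -1.67 ± 0.48, PCDHB16 at -2.23 ± 0.65, PCDHGB6 at -1.31 ± 0.37 and PCDHGC3 at -1.90 ± 0.42 (limma adjusted p = 0.00163, 0.0393, 0.0398, 0.0369 and 0.0124).

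For CDH3, CDH7, CDH19, PCDH20 and PCDHB11 the call held in each of the 8 fits without 1 library. It was lost for CDH2 (1.48 to 2.42 over those fits), PCDH9 (1.53 to 3.04), PCDH10 (1.22 to 1.71), PCDHB12 (-1.78 to -1.56), PCDHB16 (-2.56 to -1.90) and PCDHGB6 (-1.56 to -1.06) without any one of the vehicle, panobinostat or combination libraries, and for PCDHGC3 (-2.18 to -1.61) without either vehicle library, panobinostat replicate 1 or combination replicate 2.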

How the results depend on the processing

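Every one of the 111 passing member and comparison pairs kept its direction under the 8 other settings and the 8 fits without 1 library. All 111 also passed by DESeq2 and with a pseudocount of 5, all 84 that could be tested passed with a filter at a mean of 50, and 109 passed by edgeR, 109 after rescaling with TMM factors, 110 with a pseudocount of 0.5, 105 with a replicate block and 97 without a filter on low values. Among counts of members, those that rose with trametinib were 14 at a filter of 50, where fewer genes were tested. By DESeq2, 1 member fell with panobinostat, 11 were higher in the combination than with panobinostat and 9 had an interaction above 0. Without a filter, 2 had an interaction above 0 and 4 below. The cause was not tested beyond the filter's own construction.

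Over the 8 fits without 1 library, the counts that moved ran from 12 to 33 (higher with trametinib), 3 to 13 (lower with trametinib), 7 to 24 (higher with panobinostat), 0 to 1 (lower with panobinostat), 14 to 35 (higher in the combination against vehicle), 9 to 20 and 2 to 9 (higher and lower in the combination against trametinib), 1 to 15 (higher in the combination against panobinostat), and 2 to 15 and 3 to 13 (interaction above and below 0). More of the 111 calls were lost without a library of the other groups than without a trametinib library. A fit without a trametinib library takes no spread from that group, whose replicates correlated least (0.897). Calls kept in it therefore do not show that the trametinib values are the firmest.

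Replicate numbers did not pair the libraries, since same-numbered libraries deviated from their group means with correlations of -0.023 to 0.022. The 6 calls that did not pass with a replicate block were CDH7 in the combination against vehicle and against panobinostat, PCDHA11 with trametinib, PCDHB13 with panobinostat, and PCDHB12 in the combination against panobinostat and in the interaction. With that block, 24 members rose and 6 fell with trametinib, 16 rose with panobinostat and 22 rose in the combination against vehicle. Depth limits low members: 3 reads are 1.81 to 4.56 signal units, depending on the library, and this floor covers counting error only. The smallest two-sided p of an exact permutation test of 2 libraries against 2 is 0.333, so every test rests on a spread pooled over groups.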
